A study of Mus musculus with 15 samples.

Results

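White fat adipokines and lipid droplet genes were examined in mouse hearts after long exposure to methamphetamine (meth). The set holds 9 genes: the adipokines Adipoq, Lep, Retn and Cfd, the lipid droplet genes Plin1 and Cidec, and the fatty acid handling genes Fabp4, Pparg and Lpl. They were chosen by name, and a probe was taken for a gene when its transcript accession belonged to that gene or to an older alias of it. Of 41174 probes on the array, 13 matched, and 18350 genes on the array had a symbol. Retn and Lpl had 2 probes each, Fabp4 had 3, and the other 6 genes had 1.

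C57BL/6 mice, 8 to 10 weeks old at the start, were injected into the abdomen every week for 20 weeks, which the labels give as 5 months. Meth mice received methamphetamine hydrochloride, raised by 2 mg a week to 40 mg/kg, and control mice received PBS. RNA from 1 heart was hybridised to each of 15 Agilent 1-colour arrays, 4 from male meth, 4 from male PBS, 4 from female meth and 3 from female PBS mice. Males were treated in 2 trials, and the arrays hold 2 mice per group from each, while females were treated in trial 1. These are the mice put on arrays, and more males than these were treated. The hearts were those of mice alive at the end of dosing, and all groups shared the strain, the injection route and the schedule.

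White adipocytes store triglyceride in a large lipid droplet and secrete proteins called adipokines, which act on metabolism elsewhere in the body. Perilipin 1 (Plin1) and Cidec coat the droplet, where they restrain lipolysis and let droplets fuse. Fat lies on and around the heart. Fabp4 is made by capillary endothelial cells and macrophages as well as adipocytes, and Lpl is made by cardiomyocytes, so neither is particular to fat in this organ.

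Adipoq, Lep, Retn and Cfd are the adipokines of the set, and the 150 bases before the transcription start of these 4 genes are shown for their sequence context. They come from RefSeq promoters on GRCm38.p6 and are read on the + strand. Adipoq was read at chr16:23146386-23146535, Lep at chr6:29060071-29060220, Retn at chr8:3655620-3655769 and Cfd at chr10:79890703-79890852. Capitals mark a match on either strand to one of 5 motifs: the TATA box (TATAAA), the palindrome bound by C/EBP factors (TTGCGCAA), the core of nuclear receptor sites (AGGTCA), the CCAAT box (CCAAT) and the E-box (CACGTG).
Adipoq: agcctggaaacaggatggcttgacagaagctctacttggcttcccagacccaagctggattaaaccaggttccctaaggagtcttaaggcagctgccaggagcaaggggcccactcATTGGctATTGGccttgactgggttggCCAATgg
Lep: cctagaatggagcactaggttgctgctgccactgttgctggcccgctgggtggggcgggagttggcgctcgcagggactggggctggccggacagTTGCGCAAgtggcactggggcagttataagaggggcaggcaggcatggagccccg
Retn: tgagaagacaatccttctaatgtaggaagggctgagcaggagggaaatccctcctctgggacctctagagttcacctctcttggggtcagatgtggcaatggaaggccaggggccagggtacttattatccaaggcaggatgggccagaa
Cfd: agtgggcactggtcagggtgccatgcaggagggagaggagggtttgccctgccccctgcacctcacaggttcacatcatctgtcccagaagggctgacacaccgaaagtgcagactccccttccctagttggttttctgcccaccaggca
The Adipoq window held 3 CCAAT matches, 1 on the + strand. The Lep window held TTGCGCAA from 55 to 48 bases before the start. The Retn and Cfd windows held none of the 5 strings. Of 32851 promoters searched over the 250 bases before the start, 33.8% held CCAAT, 12.4% TATAAA, 14.0% AGGTCA, 6.02% CACGTG and 0.164% TTGCGCAA. A match is a description of the letters and not a site shown to be bound. Promoter entries matched 7 of the 9 genes.

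Array quality was judged from signal over background. A signal well above background was found for 61.4% to 71.4% of the probes of an array. No spot was saturated. The 28367 probes that met this mark on at least 3 arrays were tested. The arrays lay on 4 slides. Slide 4 held female meth replicates 3 and 4 and female PBS replicate 3 and was brighter, with a 75th percentile signal of 438 to 589 against 307 to 403 on the other slides. For these 3 females the titles give trial 1 and the source names trial 2. All levels are given as normalized log2 signals, the log2 intensity of the probe minus the 75th percentile of its array, so 0 is that percentile. Levels of different probes cannot be set against each other. Cardiomyocyte markers were at similar levels in the 4 groups, with a mean over 8 genes of 7.66 to 8.04 on all arrays.

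Across the 9 genes, the Cfd transcript was called higher in male meth hearts and no other gene passed the threshold in either sex taken alone. The male Cfd call held in only 9 of 31 other limma settings. Cfd was 2.72 times as abundant in male meth as in male PBS hearts (log2 fold change 1.44, SE 0.30, limma adjusted p = 0.0444, n = 4 and 4). In females, the same gene was 2.58 times as abundant (1.37, SE 0.33, limma adjusted p = 0.0829, n = 4 and 3). Adipoq, Retn, Cidec, Plin1 and Lep also had higher means in meth hearts of both sexes. Fabp4, Pparg and Lpl differed little. The threshold was an adjusted p of 0.05 over all probes tested. In RNA from whole tissue, more cells of a type and more RNA per cell cannot be told apart.

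The count of genes past the threshold was 1 of 9 higher in males, against 0.800% of all probes tested, and 0 of 9 in females, against 0.204%. At an unadjusted p under 0.05, limma gave 4 of the 9 in males, where 12.8% of all probes had such a p, and 5 of the 9 in females, where 11.0% did. The paired test that the methods name, paired here by replicate number, gave 0 and 2 of the 9, and an unpaired test gave 2 and 5. The median log2 fold change of the 9 genes was 0.75 in males, beside -0.032 over all probes tested. In females it was 1.13, beside 0.00062. The lowest meth array lay above the highest PBS array for 1 of 9 genes in males, Retn, where 4.67% of all probes did so. In females this held for 4 of 9 genes, Adipoq, Retn, Cfd and Cidec, where 3.14% of all probes did so.

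**Figure D1:**
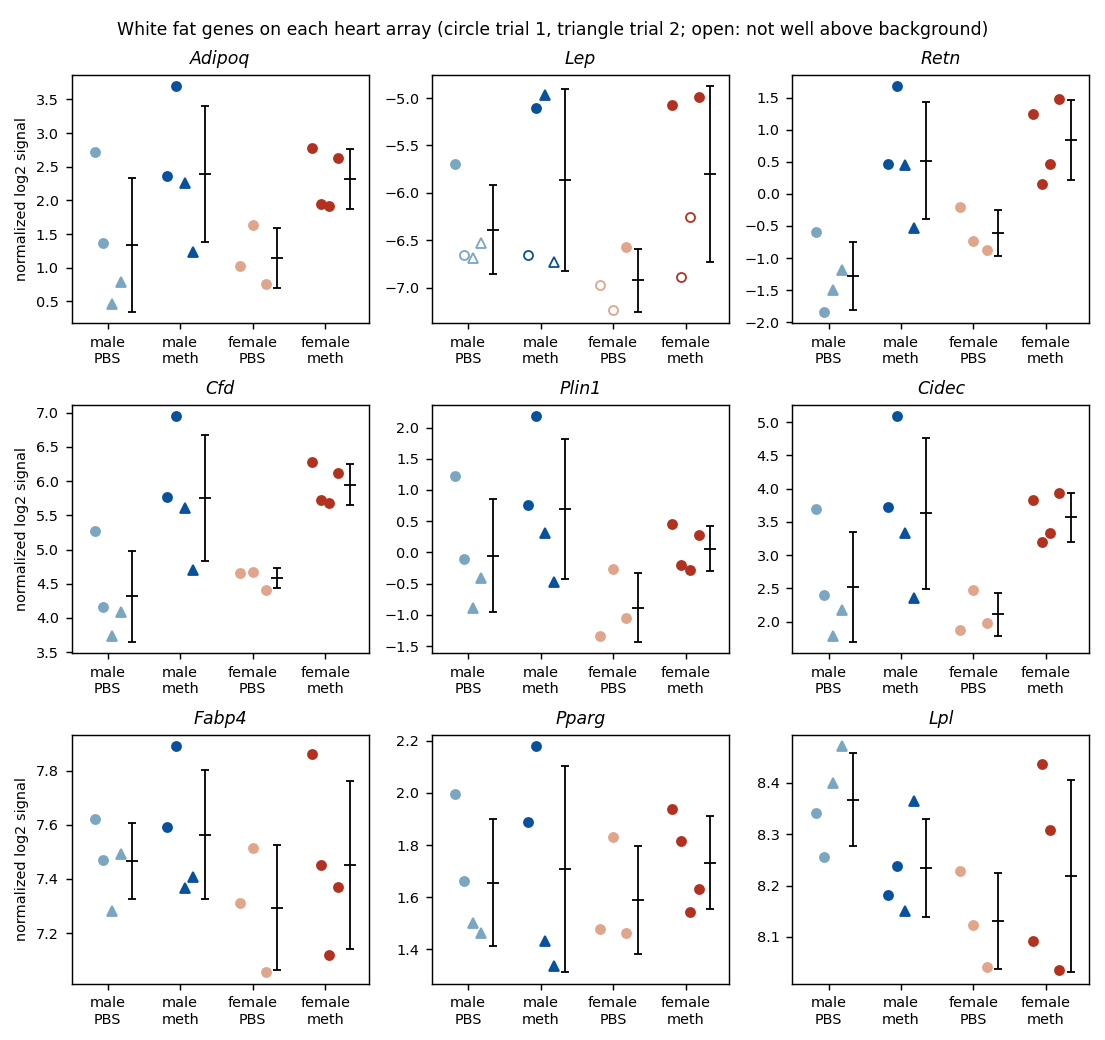
Normalized log2 signal of the 9 genes (vertical axes) on each of the 15 arrays, by sex and treatment, with the group mean ± SD beside the points. Circles are trial 1, triangles trial 2, and open symbols were not well above background. The female meth arrays lie above the female PBS arrays for Adipoq, Retn, Cfd and Cidec, and the male groups are apart for Retn.

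Cfd encodes adipsin, or complement factor D, the serine protease that starts the alternative complement pathway and an abundant product of adipocytes (chr10:79890853-79892655). The male PBS levels were 5.28 and 4.16 in trial 1 and 4.09 and 3.73 in trial 2. The male meth levels were 5.77 and 6.95 in trial 1 and 5.61 and 4.70 in trial 2. In males, 3 of 4 meth arrays exceeded the highest PBS array, and trial 2 replicate 2 of the meth group fell inside the PBS range. Female PBS levels were 4.66, 4.68 and 4.41, and female meth levels were 6.28, 5.72, 5.68 and 6.12. The female groups did not overlap. The means were 5.76 ± 0.92 (SD, n = 4) in male meth, 4.31 ± 0.67 (SD, n = 4) in male PBS, 5.95 ± 0.30 (SD, n = 4) in female meth and 4.58 ± 0.15 (SD, n = 3) in female PBS. An exact two-sided permutation test over arrays gave p = 0.0571 in males and p = 0.0286 in females, and 0.0286 is the smallest p that 4 arrays against 4 or 4 against 3 can give. This test regrouped arrays freely over trials and slides, so it takes no account of differences between them. Leaving out 1 array lost the male call in 13 of 15 cases, all but male meth trial 1 replicate 1 and male meth trial 2 replicate 2, with an adjusted p in limma of up to 0.134. With the replicate block it was 0.145, while the log2 fold change stayed 1.44.

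Retn encodes resistin, an adipokine of mouse white adipocytes that opposes insulin action (chr8:3655770-3659818). Its brighter probe read -0.59 and -1.84 in male PBS of trial 1 and -1.50 and -1.19 in trial 2. In male meth it read 0.47 and 1.69 in trial 1 and 0.45 and -0.54 in trial 2. The lowest male meth array, trial 2 replicate 2, lay just above the highest male PBS array, trial 1 replicate 1. Female PBS levels were -0.20, -0.74 and -0.88, and female meth levels were 1.25, 0.16, 0.47 and 1.49. Every meth array was above every PBS array in each sex. The male log2 fold change was 1.80 (SE 0.40), a 3.48-fold difference that did not reach the threshold (limma adjusted p = 0.0587, n = 4 and 4). The female value was 1.45 (SE 0.44), a 2.72-fold difference with an adjusted p of 0.179 in limma (n = 4 and 3). The exact permutation test gave p = 0.0286 in males and 0.0571 in females. The second Retn probe gave 1.77 in males (adjusted p = 0.0605 in limma), and its male groups overlapped.

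Adipoq encodes adiponectin, the insulin-sensitising hormone secreted by adipocytes (chr16:23146536-23157968). Male PBS levels were 2.72 and 1.37 in trial 1 and 0.47 and 0.79 in trial 2, and male meth levels were 2.36 and 3.70, then 2.26 and 1.24. Male PBS trial 1 replicate 1 was above 3 of the 4 male meth arrays, so the male groups overlapped. Female PBS levels were 1.02, 1.64 and 0.76, and female meth levels were 2.78, 1.95, 1.92 and 2.63, with no overlap. The log2 fold change was 1.05 in males (95% interval 0.24 to 1.87, adjusted p = 0.253 in limma) and 1.18 in females (0.30 to 2.06, adjusted p = 0.255 in limma). Neither reached the threshold, and the exact permutation test gave p = 0.229 in males and 0.0286 in females.

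Lep encodes leptin, the satiety hormone secreted in proportion to fat stores (chr6:29060221-29073876). Its signal was near the detection limit and was well above background on 6 of 15 arrays: female PBS replicate 3, female meth replicates 1 and 4, male PBS trial 1 replicate 1, male meth trial 1 replicate 2 and male meth trial 2 replicate 1. Female meth levels were -5.07, -6.88, -6.26 and -4.99, and female PBS levels were -6.97, -7.23 and -6.57. Male meth levels were -6.66 and -5.10 in trial 1 and -4.97 and -6.73 in trial 2, and male PBS levels were -5.69, -6.66, -6.69 and -6.52. The groups overlapped in both sexes. The log2 fold change was 0.52 in males (95% interval -0.56 to 1.61, adjusted p = 0.723 in limma) and 1.13 in females (-0.05 to 2.30, adjusted p = 0.483 in limma). The male value turned to -0.22 when low signals were set to a floor, each array's own lowest signal well above background. This floor was -6.89 on male meth trial 1 replicate 1 and -5.39 on male PBS trial 2 replicate 2. Because the floors were unequal, the turned value cannot show a direction.

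Cidec encodes the droplet protein that lets small lipid droplets pass their contents to larger ones (chr6:113424634-113435760). Male PBS levels were 3.70 and 2.41 in trial 1 and 1.79 and 2.18 in trial 2. Male meth levels were 3.72 and 5.09 in trial 1 and 3.34 and 2.36 in trial 2. Male PBS trial 1 replicate 1 lay almost at the level of male meth trial 1 replicate 1, and the groups overlapped. Female PBS levels were 1.87, 2.48 and 1.98, and female meth levels were 3.82, 3.19, 3.33 and 3.93, with no overlap. The difference was 2.16-fold in males (log2 1.11, SE 0.35, adjusted p = 0.197 in limma) and 2.75-fold in females (log2 1.46, SE 0.38, adjusted p = 0.117 in limma).

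Plin1 encodes the perilipin that guards the droplet surface of adipocytes (chr7:79721164-79732904). Male PBS levels were 1.22 and -0.11 in trial 1 and -0.89 and -0.42 in trial 2, and male meth levels were 0.77, 2.18, 0.31 and -0.47 in the same order. Female PBS levels were -1.33, -0.27 and -1.06, and female meth levels were 0.45, -0.20, -0.28 and 0.27. Both sexes overlapped, in females by a single pair of arrays, PBS replicate 2 and meth replicate 3. The log2 fold change was 0.75 in males (95% interval -0.06 to 1.55, adjusted p = 0.432 in limma) and 0.95 in females (0.08 to 1.82, adjusted p = 0.394 in limma).

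Fabp4 encodes the fatty acid carrier of adipocytes and capillary endothelium (chr3:10204342-10208616). Its levels ran from 7.28 to 7.62 in male PBS, 7.37 to 7.89 in male meth, 7.05 to 7.51 in female PBS and 7.12 to 7.86 in female meth. The log2 fold change was 0.098 in males and 0.16 in females (adjusted p = 0.841 and 0.820 in limma). The other Fabp4 probes gave 0.14 and 0.096 in males. Pparg, the nuclear receptor that directs adipocyte differentiation, lay between 1.33 and 2.18 on the 15 arrays (chr6:115360879-115490404). Its log2 fold change was 0.052 in males and 0.14 in females (adjusted p = 0.907 and 0.799 in limma). Lpl encodes lipoprotein lipase, which frees fatty acids from circulating triglyceride (chr8:68880555-68906932). Its levels lay between 8.04 and 8.47, and its log2 fold change was -0.13 in males and 0.087 in females (adjusted p = 0.601 and 0.851 in limma). The second Lpl probe gave -0.13 in males and -0.047 in females.

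**Figure D2:**
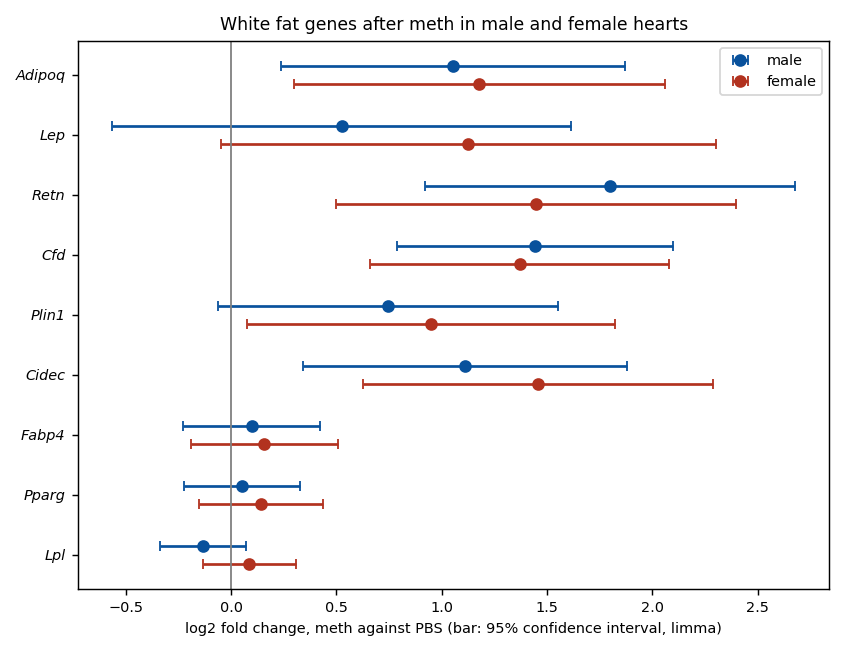
Log2 fold change of meth over PBS (horizontal axis) for each of the 9 genes in males and in females, with 95% intervals from limma. The Cfd, Retn, Adipoq and Cidec intervals lie above 0 in both sexes, and those of Fabp4, Pparg and Lpl are narrow and span 0.

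The male and female responses were set against each other with an interaction term. None of the 9 genes passed, where 0.137% of all probes did, and no gene had an unadjusted p under 0.05 in limma, where 8.66% of all probes had one. The male minus female difference in log2 fold change was 0.075 for Cfd (95% interval -0.89 to 1.04), 0.35 for Retn (-0.94 to 1.65), -0.12 for Adipoq (-1.33 to 1.08) and -0.35 for Cidec (-1.48 to 0.79). It was -0.60 for Lep (-2.20 to 1.00), -0.20 for Plin1 (-1.39 to 0.99) and -0.22 for Lpl (-0.52 to 0.08). For these adipokines and droplet genes the intervals reached past 1 log2 unit, so a difference of that size between the sexes was not excluded by the arrays. Male and female PBS hearts differed by 1.53 on the log2 scale for Plin1 (95% interval 0.57 to 2.49, adjusted p = 0.153 in limma) and by 1.06 for Cidec (adjusted p = 0.265 in limma), both higher in males. None of the 9 passed this comparison, where 0.462% of all probes did. An unadjusted p under 0.05 in limma was found for 2 of the 9, near the 15.2% of all probes.

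The mean of the male and female log2 fold changes, a comparison added after the values were seen, passed the threshold for 3 of 9 genes, where 1.12% of all probes were called higher. These were Cfd (1.41, adjusted p = 0.00661 in limma), Retn (1.62, adjusted p = 0.0139 in limma) and Cidec (1.28, adjusted p = 0.0237 in limma). Adipoq had 1.12 (adjusted p = 0.0548 in limma), Plin1 0.85 (adjusted p = 0.140 in limma) and Lep 0.83 (adjusted p = 0.309 in limma). With the replicate block no gene passed, and the adjusted p in limma was 0.0622 for Cfd, 0.0703 for Retn and 0.125 for Cidec. Without the 3 arrays of slide 4 it was 0.0564, 0.0916 and 0.127, also with no gene past the threshold.

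Each slide held meth and PBS arrays of a sex, which gave 6 contrasts within a slide, 3 for each sex. They reuse the arrays of the fit, so they are a description and not a separate test. On slides 1 and 2 each contrast set 1 array against 1. No share over all probes is given beside these counts. Cfd was higher in meth in 6 of 6, by 0.49, 2.79 and 1.24 in males on slides 1, 2 and 3 and by 1.62, 1.04 and 1.49 in females on slides 1, 2 and 4. Retn was higher in 6 of 6, by 1.06, 3.53 and 1.30 in males and by 1.45, 0.90 and 1.86 in females. Cidec was also higher in 6 of 6, but by 0.026 in males on slide 1. Slide 2 gave the largest male contrast for each of these 3 genes. Adipoq, Plin1 and Lep were higher in 5 of 6 contrasts and lower in males on slide 1, where they differed by -0.36, -0.45 and -0.96. Fabp4 was higher in 4 of 6, Pparg in 3 of 6 and Lpl in 2 of 6.

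**Figure D3:**
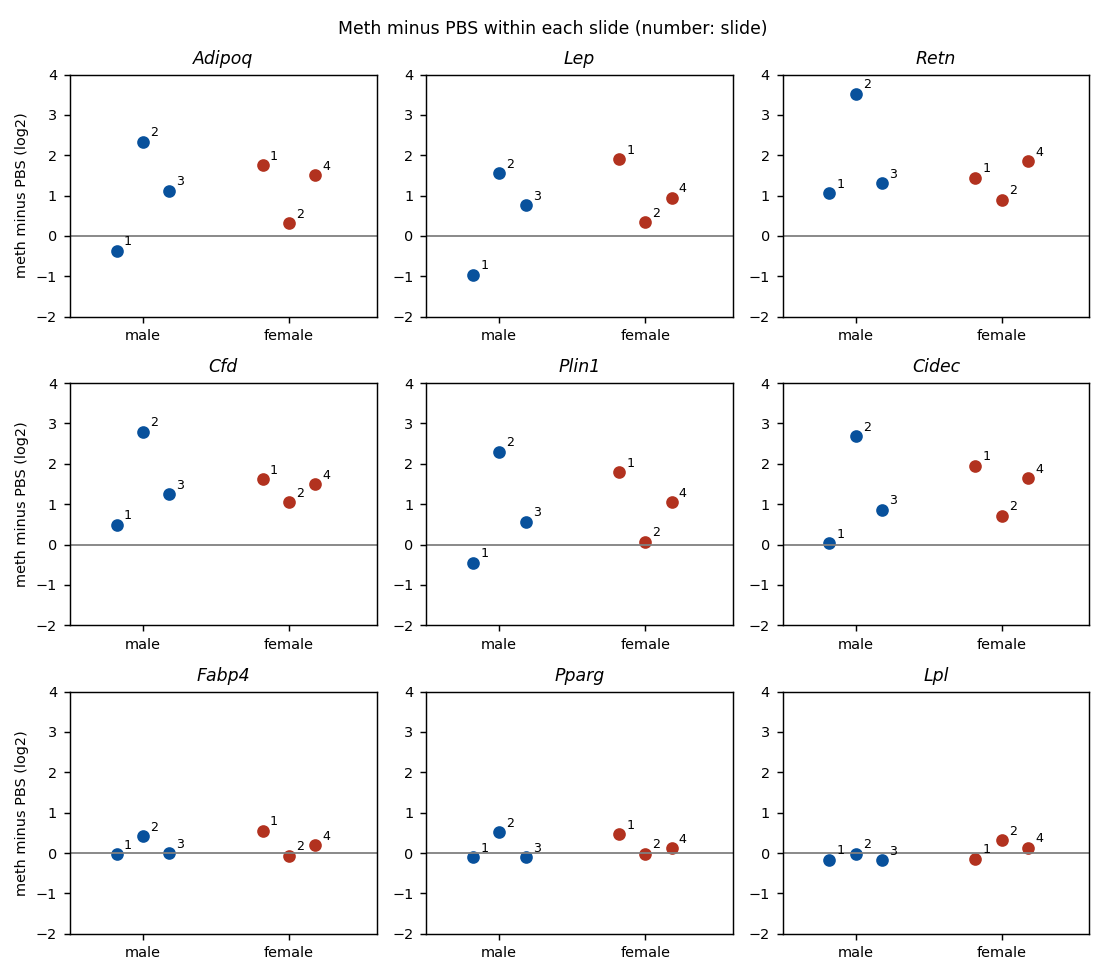
Meth minus PBS difference in normalized log2 signal (vertical axis) within each slide for the 9 genes, males on slides 1 to 3 and females on slides 1, 2 and 4. Points for Cfd, Retn and Cidec are all above 0, and for these genes slide 2 of the males stands highest.

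The trials differed in males. The trial 2 hearts were lower than the trial 1 hearts for 8 of 9 genes, and Pparg fell by 0.50 on the log2 scale (SE 0.13, adjusted p = 0.0405 in limma), the 1 gene of 9 past the threshold, where 2.12% of all probes were called lower. The values for Plin1 (-1.38, adjusted p = 0.0512 in limma), Cidec (-1.31, adjusted p = 0.0520 in limma), Adipoq (-1.35, adjusted p = 0.0582 in limma) and Cfd (-1.01, adjusted p = 0.0735 in limma) lay just outside it. Lpl differed by 0.092. Trial 2 males also lay on slide 3 alone, so trial and slide cannot be told apart. Within trial 1 the meth over PBS log2 fold change was 1.64 for Cfd, 2.29 for Retn, 1.36 for Cidec and 0.99 for Adipoq. Within trial 2 it was 1.24, 1.30, 0.86 and 1.12 in the same order. No gene passed within a trial (3 of the 9 in trial 1 and 2 in trial 2 had an unadjusted p under 0.05 in limma, beside 7.29% and 10.7% of all probes), where 0.282% of all probes were called higher in trial 1 and 0.219% in trial 2. The male meth response was also compared between the trials. None of the 9 passed in this test, where 0.00% of all probes did. At an unadjusted p under 0.05 limma gave 0 of the 9 and 4.57% of all probes.

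Several of the 9 genes were highest or lowest on the same arrays of a group. Male meth trial 1 replicate 2 had the highest level of its group for 7 of 9 genes, all but Lep and Lpl. Male PBS trial 1 replicate 1 had the highest level of its group for 8 of 9, all but Lpl. Male meth trial 2 replicate 2 was the lowest of its group for 7 of 9. Among female PBS hearts, replicate 2 was the highest for 6 of 9. The female meth arrays were more divided, with replicate 1 the highest for 5 genes, replicate 4 for 3 and replicate 2 for Lpl.

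Likeness between genes was described with Adipoq as the reference. After the mean of each sex and treatment group was subtracted, the Pearson correlation with Adipoq over the 15 arrays was computed for 14225 other genes. Of these, 64 exceeded 0.9. The difference between the male trials was not taken out, so it enters these correlations. It was -1.35 for Adipoq, -1.38 for Plin1 and -1.31 for Cidec. The arrays share scaling and slides, so no p is given. The 10 closest genes were Car3 (0.99), Cdo1 (0.99), Fasn (0.99), Elovl6 (0.98), Tkt (0.98), Acp5 (0.98), Plin1 (0.97), Ptger3 (0.97), Cidec (0.97) and Scd1 (0.97). Fasn, Elovl6 and Scd1 build and modify fatty acids, and Car3 is a carbonic anhydrase abundant in adipocytes. Cfd ranked 17 (0.97), Pparg 94 (0.86), Retn 156 (0.80), Fabp4 360 (0.71) and Lep 826 (0.62). Lpl ranked 12300 (-0.42).

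Related genes were counted from lists of their own. Among other adipokines, Rbp4, the retinol carrier, had a log2 fold change of 0.76 in males and 0.56 in females. None of 11 adipokine receptors and complement partners passed. Cfb, the complement factor that Cfd cleaves, had 0.92 in males (adjusted p = 0.177 in limma) and 0.55 in females, Stra6 had -0.43 in males and Aplnr -0.53 in females. None of 14 other lipid droplet and lipolysis genes passed in either sex, with Plin5 at -0.39 and Cideb at 0.30 in males, and G0s2 at 0.46 and Plin2 at 0.27 in females. None of 5 lipoprotein lipase partners passed. Vldlr, a receptor for triglyceride-rich lipoproteins, had -0.27 in males, and Gpihbp1, which holds the lipase on capillaries, had 0.21 in females.

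None of 13 adipocyte transcription factors passed in either sex. In males Klf5 had 1.10 (adjusted p = 0.0652 in limma) and Cebpb 0.97 (adjusted p = 0.120 in limma), and in females Cebpa had 0.60 and Cebpb 0.56. None of 17 triglyceride synthesis and lipogenesis genes passed in either sex. Scd1, the stearoyl-CoA desaturase, had 1.48 in males and 1.46 in females, and Fasn, the fatty acid synthase, had 1.11 and 0.76. In trial 2 against trial 1 males, 16 of these 17 had a value below 0, and 4 fell past the threshold, where 2.12% of all probes did, with differences of -2.43 for Scd1, -1.48 for Fasn, -1.19 for Thrsp and -0.65 for Agpat2. Of 10 other white adipocyte markers, 1 passed in males, Cyp2e1 (1.92, adjusted p = 0.0192 in limma), a cytochrome of liver and fat, and 0 in females, where Cyp2e1 had 1.56 (adjusted p = 0.0774 in limma) and Lgals12 1.47. Their median log2 fold change was 0.63 in males and 0.89 in females, with 10 of 10 and 9 of 10 above 0. Their mean level ran from -1.45 to 0.20 in male meth, -1.90 to -0.80 in male PBS, -1.29 to -0.75 in female meth and -2.16 to -1.58 in female PBS. It overlapped between the groups in males and not in females.

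Markers of brown adipocytes were set beside the white ones. None of 8 passed in either sex, and the medians were 0.16 in males and 0.12 in females. Elovl3 had 1.12 and Otop1 0.87 in males, and Otop1 had 1.17 and Ucp1, the heat-producing carrier of brown fat, 1.05 in females. Prdm16 went the other way, with -0.34 in males (adjusted p = 0.0607 in limma) and -0.32 in females (adjusted p = 0.114 in limma). Zic1 and Kng2 were not well above background on any array. The mean level of the brown markers ran from 0.15 to 1.57 in male meth and from -0.16 to 0.53 in male PBS. In females it ran from 0.42 to 0.79 in meth and from -0.29 to 0.72 in PBS, so the groups overlapped in both sexes.

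Markers of other cells that a heart sample could hold were also counted. Airway secretory cell markers, which code for secreted proteins of the airway lining, passed for 5 of 5 in males and 1 of 5 in females. The log2 fold change in males was 9.29 for Scgb1a1, 5.70 for Scgb3a1 and 4.98 for Bpifb1. In females Scgb1a1 went the other way, at -1.48 (adjusted p = 0.311 in limma). The other female values were 4.77 for Bpifa1, 1.16 for Bpifb1, 1.13 for Scgb3a1 and 0.39 for Muc5b. Muc5b also passed in males, and Bpifa1 passed in both sexes. No PBS array had Bpifa1 well above background and all 8 meth arrays did, with a mean level of 4.83 in male meth and -1.56 in female meth. Their mean level ran from 0.97 to 2.93 in male meth and from -5.61 to -5.09 in male PBS, and from -3.81 to -1.75 in female meth and -4.35 to -3.45 in female PBS. Their part in the Cfd and Retn values was not tested. None of the 6 mesothelium markers passed. Their mean level ran from -0.75 to -0.08 in male meth and from -1.44 to -0.87 in male PBS, with no overlap, and the female groups overlapped. Their part in the values of the 9 genes was not tested. Their largest log2 fold changes were for Krt8 (1.03) and Krt19 (0.76) in males and for Krt19 (-0.33) and Wt1 (0.27) in females.

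None of 6 atrial cardiomyocyte markers passed, and all 6 were above 0 in both sexes, with Bmp10 at 0.90 and Dkk3 at 0.52 in males, and Bmp10 at 0.87 and Myl4 at 0.68 in females. Their mean level ran from 5.24 to 5.71 in male meth and from 4.60 to 5.43 in male PBS, and from 4.74 to 5.25 in female meth and 4.10 to 4.70 in female PBS, so the female groups did not overlap. Their part in the values of the 9 genes was not tested. None of the 8 cardiomyocyte, 7 endothelial, 6 macrophage, 3 thymocyte or 3 hepatocyte markers tested passed in either sex. Their largest log2 fold changes in males were Ryr2 (-0.20) and Ckm (-0.14), Kdr (-0.34) and Tek (-0.12), Lyz2 (0.29) and Cd163 (0.22), and Dntt (0.51), list by list, and Themis and the 3 hepatocyte markers were not well above background on any male PBS array. In females they were Pln (0.20) and Myl2 (0.14), Kdr (-0.28) and Tie1 (-0.15), Cd163 (0.18) and Lyz2 (0.17), Themis (0.48) and Dntt (-0.35), and Apoa1 (-1.28) and Alb (-0.95). Rag1 and Ttr were not well above background on any array.

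**Figure D4:**
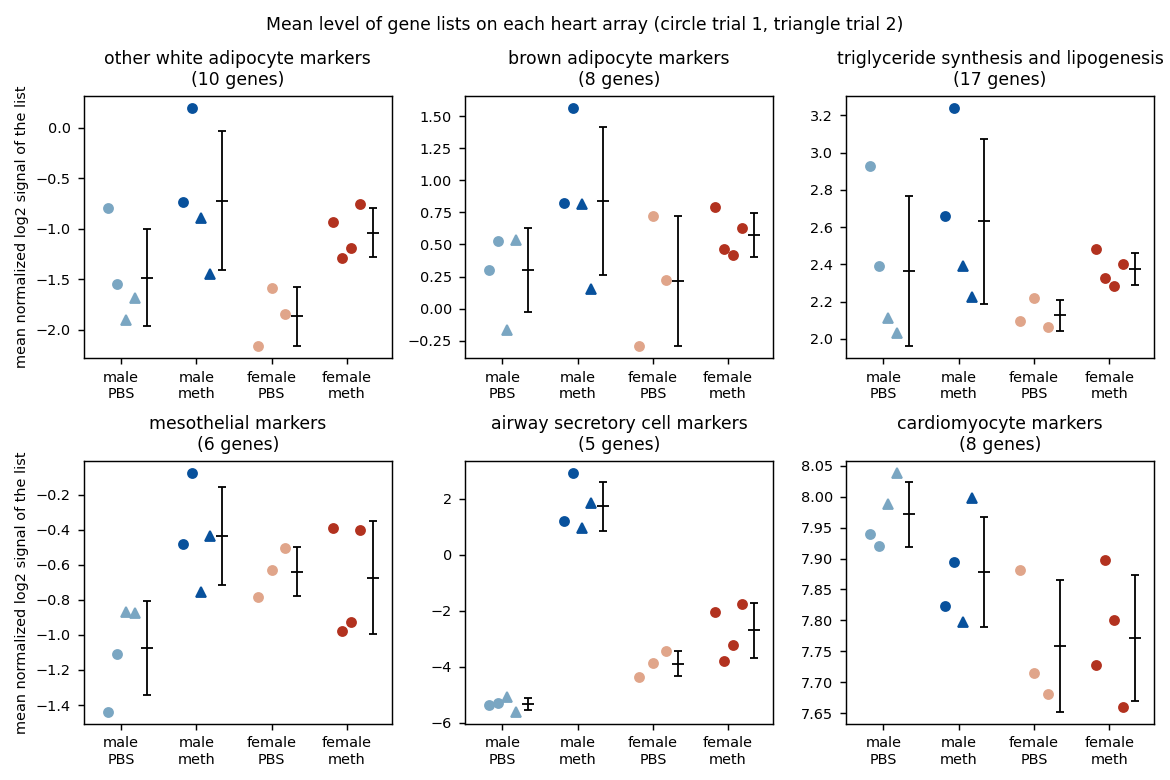
Mean normalized log2 signal (vertical axes) of 6 gene lists on each of the 15 arrays, by sex and treatment, with the group mean ± SD beside the points (circles trial 1, triangles trial 2). The airway secretory markers separate male meth from male PBS arrays, and the white adipocyte markers overlap between the male groups.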

How the data were processed

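RNA of 15 mouse hearts was hybridised to Agilent 1-colour arrays, each heart to its own array. The authors labelled it with Cy3 and extracted background-subtracted intensities for each spot with Feature Extraction (version 9.1 in the submitters' processing notes, 10.5.1.1 per the file headers). No scaling across arrays had been applied to these deposited intensities. A deposited log2 table, which the authors shifted to a common 75th percentile, served as an alternative. It differed from the log2 signals used here only by a constant on each array. It therefore nearly repeats the main fit and is no independent check, though it counts among the limma alternatives. Feature Extraction also set the flags used here (saturated, outlier, well above background).

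Control spots were left out, outlier spots were set to missing, spots of a probe were averaged, and each array's log2 signal was shifted by its 75th percentile. A probe was tested if 3 or more of the 15 arrays had it well above background, which kept 28367 of 41174. Accessions were named through RefSeq gene tables, which gave a symbol for 26918 probes. Gene coordinates are those of GRCm38.p6. The probe of highest mean signal stands for a gene, and its other probes are given beside it.

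A linear model with moderated variances (limma 3.58.1 under R 4.3.3, functions lmFit and eBayes) was fitted to all 15 arrays, with the 4 groups and the trial of the titles as terms. Two-sided p-values were adjusted with the Benjamini-Hochberg method across the tested probes, and the threshold was 0.05. To read the male response in each trial, the male groups were split by trial in another model. Exact permutation tests went through all regroupings of arrays (70 for males, 35 for females), without regard to trial or slide. The procedure was tested on simulated data. Figures were drawn with matplotlib 3.10.9. Precision is limited by how few arrays there are.

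The 9 genes, the comparison lists and the tests were chosen with earlier results of these data known. The genes named are all 9, and from each list those past the threshold or else the 2 whose log2 fold change was farthest from 0 in each sex. Some list genes are not reported here. A few list genes named for their function were chosen after their values were seen.

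The replicate numbers were checked for pairing. Same-numbered female arrays share a slide and deviated together (correlations of deviations from the group means 0.30, 0.44 and 0.66). Same-numbered male arrays also shared a slide. Their correlations were 0.26 to 0.40 over both trials, but -0.086 and 0.0099 once the trial mean was taken out. Female numbers were therefore taken to pair arrays through the slide, though a shared slide did not go with such pairing in males. The main fit left this pairing out, while the replicate block and the paired t-test used the numbers in both sexes.

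Alternatives were background correction by normexp with an offset of 50, other scalings, a floor, other filters, other terms for trial, slide and scan session, the replicate block, fewer groups, a paired t-test as in the methods, an unpaired one, and leaving out each array. Leaving out the slide 4 arrays and the mean of both sexes were added after the data were seen.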

Additional observations from a re-analysis of the deposited data

Results flagged for a closer look

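Of 27 groups of 4 arrays, 9 genes in 3 groups, 1 held an array far from the rest. Lep in male PBS hearts was -5.69 on trial 1 replicate 1, and the next highest array was at -6.52. Chance gives about 1 such case in 20 groups. That array also had the highest level of its group for 8 of the 9 genes. It was the 1 male PBS array on which Lep was well above background.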

How the results depend on the processing

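The count of genes past the threshold in males, 1 of 9, became 0 with normexp background correction, no filter, no trial term, the trial as in the source names, slide as a block, the replicate block, only the groups compared, only trial 1 arrays, without the slide 4 arrays and with both t-tests. It became 2 with the filter on all 15 arrays, and ranged from 0 to 2 when each array was left out. Cfd in males missed the threshold in 22 of 31 limma alternatives (adjusted p 0.0353 to 0.295), among them 0.145 with the replicate block. Its log2 fold change ranged from 1.17 to 1.66 with 1 array left out, and adjusted p from 0.0382 to 0.134. At an unadjusted p under 0.05 the male count of 4 became 0 and 2 with the paired and unpaired t-tests, and the female count of 5 became 2 with the paired. The count in the mean of both sexes, 3, became 0 with the replicate block, only trial 1 arrays and without the slide 4 arrays, and ranged from 2 to 4 with 1 array left out. The count between the trials, 1, became 0 with normexp, quantile normalization and no filter, and 4 with the median shift and the filter on all 15 arrays. It ranged from 0 to 4 with 1 array left out.

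Directions turned for small differences. The sex difference turned to 0.020 for Adipoq without slide 4, to -0.029 (source-name trial) and -0.033 (median shift) for Cfd, to 0.11 (quantile) and 0.037 (only trial 1) for Fabp4, and to 0.062 (only trial 1) for Pparg. Male against female PBS turned to -0.16 (source-name trial) and -0.27 (no trial term) for Cfd and to -0.061 (quantile) for Lpl. With the floor, which differed between arrays, Lep turned to -0.22 in males, -0.30 in trial 1, -0.14 in trial 2 and 0.21 between the trials. With normexp it turned to -0.022 in trial 1. Fabp4 in trial 2 turned to -0.0048 (normexp) and -0.031 (median shift), Lpl in females to -0.0044 (quantile), and Lpl in the mean of both sexes to 0.0069 (replicate block).

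With 1 array left out, the difference between the trials in the male meth response ranged from -0.55 to 0.81 for Adipoq. For Cfd it ranged from -0.99 to 0.19, for Cidec from -1.18 to 0.19 and for Lep from -0.42 to 1.34. For Lpl it ranged from -0.20 to 0.019 and for Plin1 from -1.06 to 0.36, and its median ranged from -0.55 to 0.19. The sex difference ranged from -0.38 to 0.16 for Adipoq, -0.20 to 0.30 for Cfd, -0.52 to 0.045 for Plin1 and -0.17 to 0.078 for Fabp4. Male against female PBS ranged from -0.040 to 0.63 for Cfd and -0.59 to 0.16 for Retn. Pparg in males ranged from -0.045 to 0.10, Lpl in the mean of both sexes from -0.060 to 0.0069, and Fabp4 in trial 2 from -0.10 to 0.11. The male meth over PBS value of Lep ranged from -0.48 to 1.07 in trial 1 and -0.12 to 1.63 in trial 2. Its level in trial 2 against trial 1 males ranged from -0.60 to 0.10.

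Over all probes, 314 passed in males (43 to 667 under other settings), 215 in females (21 to 508), 39 in the sex difference (0 to 65), 131 between PBS sexes (23 to 326), 750 in the mean of both sexes (115 to 1507) and 1504 between the trials (62 to 3982). The cause of these changes was not tested. Signal over background limits Lep.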
